A study of Mus musculus with 2 samples.

Results

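The cells described here are single cells of the infarcted mouse heart that carried transcripts of Cd209a, a C-type lectin of dendritic cells, or Flt3, the receptor for the dendritic cell growth factor Flt3 ligand, together with transcripts of MHC class II. A cell counted as a member when it held at least 3000 unique molecular identifiers (UMIs, one per captured transcript molecule), at least 500 genes and no more than 10% of UMIs from mitochondrial genes. It also had to hold at least 3 UMIs of Cd209a and Flt3 together, at least 10 of H2-Aa, H2-Ab1 and H2-Eb1 together, and fewer than 3 of Ccr7, the receptor by which mature dendritic cells leave a tissue. The rule found 235 cells among the 18770 in both libraries, 148 in the WT library and 87 in the CD40 KO library. The members were thus chosen by measured UMIs of these genes, and their levels of Cd209a, Flt3, the 3 class II genes and Ccr7 are given as a description.

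Conventional dendritic cells take up antigen in tissues, load its peptides onto MHC class II molecules and carry them to lymph nodes, where T cells recognise them. They need Flt3 signalling, and Zbtb46 is a transcription factor that marks their lineage among myeloid cells. Cd209a is found on type 2 conventional dendritic cells and on dendritic cells that arise from monocytes, and both can take part in T cell priming after an infarct. CD40 is the receptor through which helper T cells license dendritic cells, and its signal runs through TRAF adaptors to NF-kB and raises costimulatory ligands.

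Mononuclear macrophages, gated by the submitters as CD45+, CD11b+ and CD64+, had been taken from the infarct and border zones 3 days after myocardial infarction. One group was WT mice and the other CD40 KO mice, each with 1 library made by droplet 3′ RNA sequencing. Here the sources used give neither strain, age, sex nor number of the mice, nor the kind of CD40 allele. With 1 library per group no difference between genotypes has a replicate check, so no p-value is given: ratios carry exact 95% intervals that cover counting error only, not differences between cells, mice or preparations. The gate was for cells with CD64, so how many dendritic cells it kept is not known from these data.

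After the filters on depth and mitochondrial share, 7431 WT and 5757 CD40 KO cells were kept, with medians of 13627 and 9224 UMIs. The libraries shared 23 cell barcodes, and 1 WT member carried one of them. Among the kept cells, cluster 11, led by Mt1, Ccdc162 and Crip1, held 25 WT and 2652 CD40 KO cells with a median of 4805 UMIs. It therefore made up much of one library only, and the shares of members are given with and without it. Many of the CD40 KO macrophage cells defined below also lay in it. A doublet caller marked no cell at its own threshold, so doublets were left in and the cells with the highest doublet scores are counted where they bear on the members.

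Cd40, the targeted gene (chromosome 2, 165055627 to 165072948, plus strand, GRCm38), was detected in both libraries. Its level was 24.3 CPM in WT and 31.6 in CD40 KO (CPM, a gene's UMIs per 1000000 UMIs summed over the cells), a log2 ratio of 0.38 (95% interval -0.06 to 0.81). The interval spans 0. In the class II macrophage cells defined below the levels were 20.9 and 18.2 CPM, and Cd40 was seen in 10 of 48 WT and 16 of 32 CD40 KO cells among the members with few C1q UMIs. A 3′ tag can lie outside the deleted part of a gene, so these reads do not check the genotype, and the library is named throughout by its label, CD40 KO.

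The members ranged widely in transcripts of complement C1q, a product of macrophages, and were split by them. The cut at 10 UMIs of C1qa, C1qb and C1qc together was chosen with these data in view: 48 WT and 32 CD40 KO members lay below it (C1q-low) and 100 and 55 at or above it (C1q-high). C1q-low members held medians of 9985 UMIs in WT and 13817 in CD40 KO, against 36735 and 34230 in C1q-high members. A cut in UMIs favours shallow cells as C1q-low, and the part of depth in the split was not tested. The median C1q count, whose gap the cut itself sets, was 1 and 5 UMIs in C1q-low members and 135 and 80 in C1q-high members. Class II transcripts had closer medians: the sum of the 3 genes was 209 and 227 UMIs in C1q-low members and 212 and 193 in C1q-high members. Whether they follow depth within either kind of member was not tested.

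**Figure D1:**
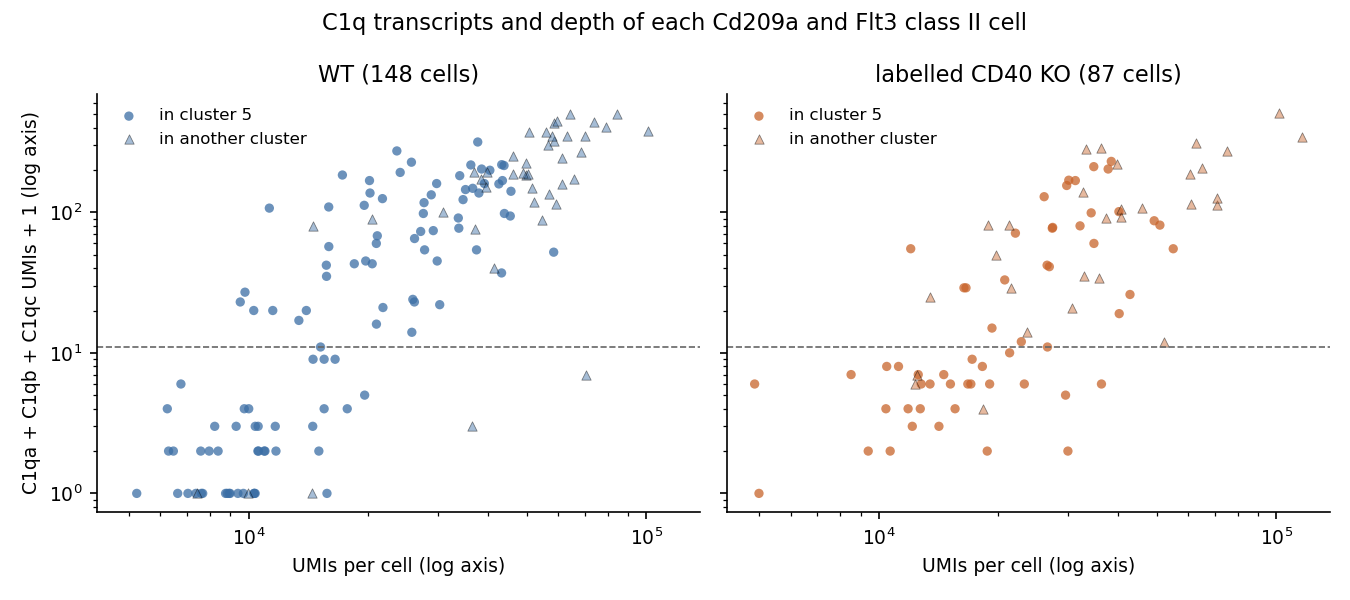
Each point is one member cell, with its UMIs on the x axis and its C1qa, C1qb and C1qc UMIs plus 1 on the y axis, both log axes; circles are cells of cluster 5, triangles cells of other clusters, and the dashed line is the cut at 10 C1q UMIs. The 48 WT and 32 CD40 KO cells under the line lie mostly at the shallow end, and 43 and 29 of them are in cluster 5.

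The label of dendritic-like cells was set against clusters and marker lists, some of which hold genes of the rule. Among genes the rule did not use, Klrd1, Zbtb46, Dpp4, Clec10a and Napsa were higher in C1q-low members than in macrophage cells, with values below. Klrd1 and Clec10a were among the 12 genes of the members highest over macrophage cells. Zbtb46, Dpp4 and Napsa were named after their values were seen. The macrophage cells were also chosen to hold C1q and few Cd209a and Flt3 UMIs, so these levels are a description and no test of the label. Cluster 5, led by Ccr7, Ccl22, Cd209a, Klrd1, Dscam, P2ry10, Zfp366, H2-Oa, Dpp4 and Tbc1d4, held 43 of 48 WT and 29 of 32 CD40 KO C1q-low members. Ccr7 and Cd209a, among its leading genes, are genes of the rule. Cluster 5 held 62 of 100 and 28 of 55 of the C1q-high members. Of the other C1q-high members, 24 WT and 5 CD40 KO cells lay in cluster 7, led by G0s2, Hdc and the neutrophil gene S100a9, and 1 and 13 cells in cluster 3, led by Scin. The whole set is therefore called Cd209a and Flt3 class II cells, after its rule, and not by a cell type name.

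MHC class II genes were abundant in the members, in part because the rule asks for them. In C1q-low members the beta chain H2-Eb1 (chromosome 17, 34305867 to 34316674, plus strand) stood at 5685 CPM in WT and 5395 in CD40 KO and the alpha chain H2-Aa at 5853 and 5230.0 CPM. The invariant chain Cd74, which fills the groove of new class II molecules, stood at 9606 and 10512 CPM. The comparison cells were class II macrophage cells, 1610 in WT and 1532 in CD40 KO, with at least 10 class II and 10 C1q UMIs, at least 3 UMIs of Adgre1, Fcgr1 and Mertk together, and fewer than 3 UMIs each of Cd209a with Flt3 and of Ccr7. In them H2-Eb1 stood at 1029.5 and 791 and Cd74 at 2326 and 1873 CPM, lower than in C1q-low members of both libraries. Of these macrophage cells, 8 in WT and 908 in CD40 KO lay in cluster 11. Their CPM levels and shares of cells include that cluster unless stated. Without it 1602 and 624 macrophage cells were left, with medians of 22962.5 and 32673.5 UMIs.

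Class II genes are known for promoters with an X box and a Y box, and the windows of 6 of them are printed because these genes were high together in the C1q-low members. Each runs from 120 to 21 bases before the start site in RefSeq (GRCm38.p6), 5′ to 3′ on the gene's own strand. Capitals mark ATTGG, the reverse complement of the CCAAT box and the core of the class II Y box. They also mark ATGATGC, a stretch in the place of the X box that was picked after the sequences had been read.
H2-Eb1 (chr17:34305747-34305846, plus strand): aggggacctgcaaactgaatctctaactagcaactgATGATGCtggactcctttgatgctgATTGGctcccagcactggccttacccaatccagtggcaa
H2-Aa (chr17:34287844-34287943, minus strand): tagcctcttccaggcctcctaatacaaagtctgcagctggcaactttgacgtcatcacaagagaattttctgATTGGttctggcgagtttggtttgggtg
H2-DMb1 (chr17:34153071-34153170, plus strand): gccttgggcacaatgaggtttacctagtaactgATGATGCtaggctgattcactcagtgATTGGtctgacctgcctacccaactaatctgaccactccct
H2-DMb2 (chr17:34145129-34145228, plus strand): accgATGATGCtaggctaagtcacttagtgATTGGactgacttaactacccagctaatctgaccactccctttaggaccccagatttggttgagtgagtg
H2-Oa (chr17:34092259-34092358, plus strand): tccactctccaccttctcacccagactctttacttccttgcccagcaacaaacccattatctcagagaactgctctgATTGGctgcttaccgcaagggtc
H2-Ob (chr17:34238785-34238884, plus strand): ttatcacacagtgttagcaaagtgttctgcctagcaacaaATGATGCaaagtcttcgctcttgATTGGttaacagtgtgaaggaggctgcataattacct
ATTGG on either strand was in the promoters of all 8 class II presentation genes with an entry among 10 searched, against 37.4% of 32851 promoters of the same 300 bases. ATGATGC on either strand was in 2.46% of all promoters and in H2-DMb1, H2-DMb2, H2-Eb1 and H2-Ob. ATGATGC with ATTGG in the next 40 bases on the gene's own strand was in those 4 genes and in 23 promoters in all, 0.07%. ATTGG was not among the 300 bases of Cd209a, Flt3, Htr7, Zbtb46 or Dpp4, the 5 with an entry of 7 other genes searched, which says only that these letters are not there. A match describes the letters and shows no binding.

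The accessory genes of the class II pathway were higher in C1q-low members than in macrophage cells. H2-DMb2, a beta chain of the H2-M exchange factor that loads peptides, was at 118 CPM in WT and 141 in CD40 KO in C1q-low members and at 5.42 and 5.97 CPM in macrophage cells. H2-Oa and H2-Ob encode the H2-O heterodimer that restrains this exchange, known from B cells and some dendritic cells. H2-Oa was at 125 and 98.8 against 3.95 and 5.94 CPM and H2-Ob at 68.4 and 26.2 against 2.11 and 2.55 CPM. Ciita, the master coactivator of class II transcription, was at 53.0 and 72.6 against 6.75 and 5.44 CPM, seen in 16 of 48 WT and 15 of 32 CD40 KO cells. In each pair the first value is WT, and both libraries had the higher level in C1q-low members.

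Across all genes with a mean of at least 50 CPM in either cell set, 206 of 3823 (5.39%) were at least 2-fold higher in C1q-low members than in macrophage cells in both libraries, and 215 (5.62%) at least 2-fold lower. Folds were taken after adding 2 CPM. Of the class II presentation list, 10 of 14 measured genes were on the higher side and 3, the lysosomal proteases Ctsb, Ctsd and Lgmn, on the lower side. Ctsb stood at 1005 and 611 CPM in C1q-low members and 4583 and 2932 CPM in macrophage cells. Of the 16 measured genes of class I presentation none was past 2-fold in both libraries.

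The genes of type 2 and monocyte-derived dendritic cells were high as a group: 11 of 16 measured were higher by the 2-fold rule and none lower, with a median log2 fold of 2.61 in WT and 2.65 in CD40 KO, beside 0.08 and -0.00 over all genes. Of all genes 5.39% were higher and 5.62% lower. This list holds Cd209a, which the rule used. Cd209a itself (chromosome 8, 3743397 to 3748984, minus strand) was at 537 CPM in WT and 313 in CD40 KO in C1q-low members. Klrd1, which encodes CD94 and is best known from natural killer cells, was at 272 and 387 CPM and at 7.02 and 14.2 CPM in macrophage cells. Clec10a, a lectin for galactose sugars, was at 152 and 177 against 23.2 and 14.8 CPM. Napsa, an aspartic protease, was at 416 and 381 against 50.1 and 70.0 CPM. All 3 were higher in C1q-low members of both libraries.

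The shared dendritic cell list had 7 of 13 measured genes at least 2-fold higher and none lower, beside 5.39% and 5.62% of all genes. Its median log2 fold was 1.83 in WT and 1.82 in CD40 KO. Zbtb46 was at 80.4 and 76.6 CPM in C1q-low members and 6.06 and 7.32 CPM in macrophage cells. Flt3 (chromosome 5, 147330741 to 147400489, minus strand) was at 119.7 and 101 against 2.94 and 5.54 CPM, a gap that the choice of both sets fixed. Htr7, a serotonin receptor named as a marker of these cells, was at 174 and 135 against 9.68 and 15.8 CPM. Dpp4, the surface peptidase CD26, was at 71.8 and 74.6 against 3.67 and 3.93 CPM, and Cd7, an immunoglobulin family receptor, at 88.9 and 76.6 against 1.06 and 1.17 CPM. Cd7 was named after its values were seen. Htr7, Zbtb46 and Dpp4 were also seen in C1q-low Ccr7 cells, described below, so these genes do not mark the members alone.

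Shares of cells at one depth gave the same picture for Klrd1 and Htr7, which the choice of cells did not use but which were named with these data known. The gaps in Cd209a and C1qa were set by that choice. After each cell was thinned to 3000 UMIs, Klrd1 was seen in 52.1% (exact 95% interval 37.2 to 66.7) of WT and 62.5% (43.7 to 78.9) of CD40 KO C1q-low members, against 0.87% and 7.44% of macrophage cells. Htr7 was seen in 27.1% and 25% against 3.04% and 3.33%, and Cd209a in 60.4% and 71.9% against 0.497% and 2.02%. Unthinned, Cd209a was seen in 81.2% and 84.4% of C1q-low members and 2.86% and 6.07% of macrophage cells, and Htr7 in 43.8% and 68.8% against 13% and 15.4%. Klrd1 was seen unthinned in 72.9% and 96.9% of C1q-low members and in 5.47% and 15.7% of macrophage cells, whose median depths were 22941 and 10133 UMIs. C1qa was seen in 14.6% and 25% of thinned C1q-low members and in 93.0% and 93.7% of thinned macrophage cells. C1q-low cells with at least 3 Ccr7 UMIs showed C1qa in 13.3% and 27.1%. The limits on C1q chose each of these sets, so the C1qa shares are a description.

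**Figure D2:**
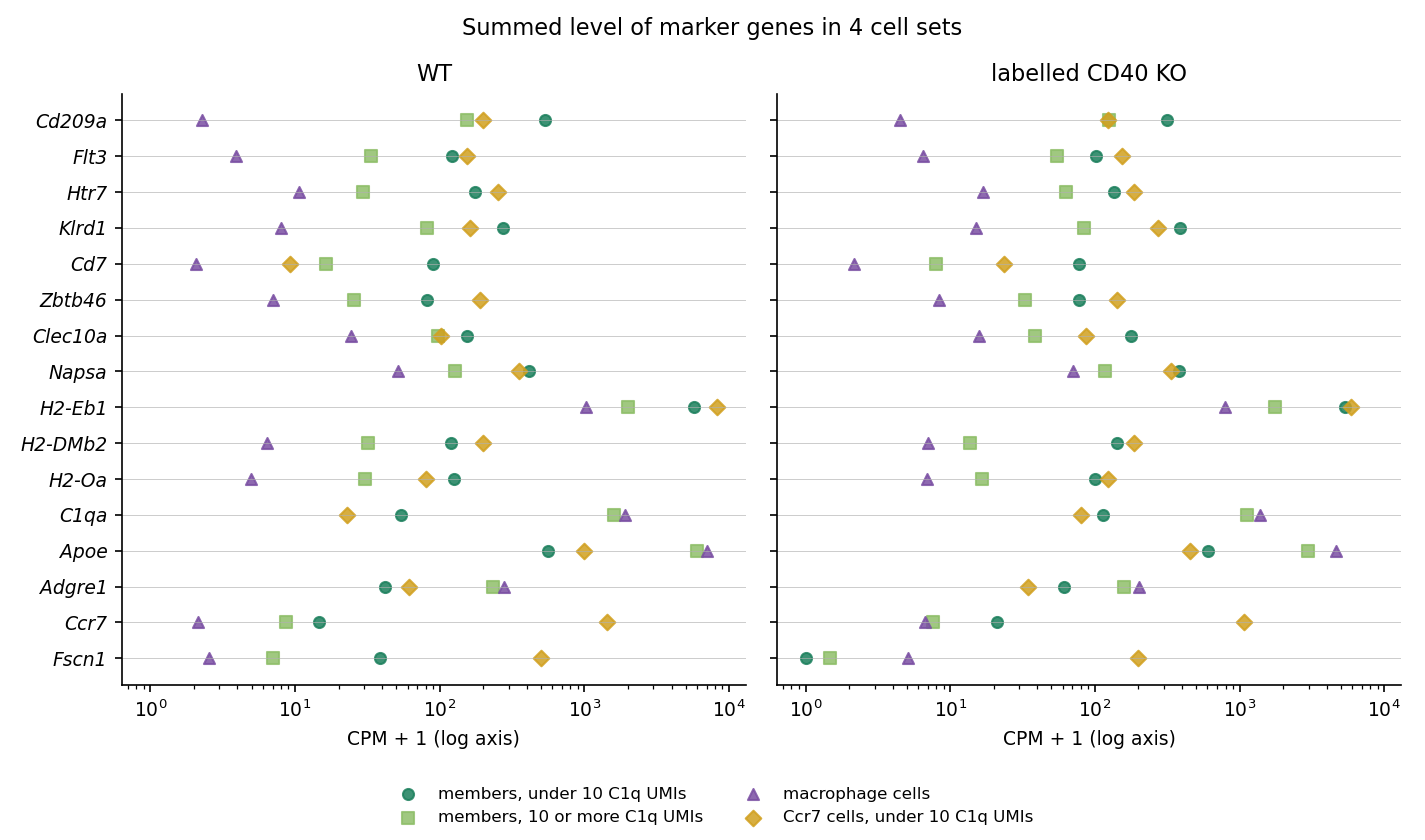
Points give the level of 16 genes in CPM plus 1 on a log axis, WT on the left and CD40 KO on the right, for C1q-low members, C1q-high members, macrophage cells and C1q-low Ccr7 cells. C1q-low members lie above macrophage cells for the 11 genes from Cd209a to H2-Oa and below them for C1qa, Apoe and Adgre1 in both libraries, and C1q-high members lie between the 2 sets for the first 11 genes.

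The macrophage list was low in C1q-low members, with 18 of 18 measured genes at least 2-fold lower in both libraries. The summed level of the list was 2240.0 CPM in WT and 2002 in CD40 KO, against 19509 and 14843 CPM in macrophage cells. Macrophage cells without cluster 11 had 19495.5 and 12545 CPM. Apoe, the lipid carrier of resident and lipid-laden macrophages, was at 561 and 609 against 7044 and 4663 CPM. Of the genes for efferocytosis, the uptake of dead cells, 12 of 17 measured were lower and none higher. Lipid handling had 10 of 19 lower, chemokines 10 of 15 lower and 1 higher, Ccl17, and cytokines 7 of 10 lower. By the same rule 5.62% of all genes were lower and 5.39% higher. Fcgr1, which encodes CD64, the antigen of the gate, was at 41.0 and 44.4 against 197 and 199 CPM, and was seen in 12 of 48 WT and 13 of 32 CD40 KO cells. Part of this is fixed by the choice of cells, since macrophage cells had to hold C1q and macrophage receptor UMIs.

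Genes for migration and for CD40 signalling were partly higher. P2ry10, Gpr183, Itgax and Itgb7 were the 4 of 14 migration genes at least 2-fold higher, beside 5.39% of all genes. The median log2 fold of that list was only 0.14 in WT and 0.41 in CD40 KO. Gpr183, the oxysterol receptor that positions dendritic cells in lymphoid tissue, was at 221 and 254 CPM against 31.9 and 42.6 CPM. Of 16 measured genes of CD40 signalling, Traf1, Rel and Map3k14 were higher and none lower, beside 5.39% and 5.62% of all genes. Their list median was only 0.44 in WT and 0.24 in CD40 KO. Map3k14, the NF-kB inducing kinase, was at 168 and 196 against 36.0 and 48.0 CPM, and the NF-kB subunit Rel at 882 and 1139 against 335 and 338 CPM. Ccr2, which brings monocytes and their descendants into the infarct, did not stand out, at 173 and 147 against 211 and 178 CPM.

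Markers of other cells differed by list in C1q-low members. The endothelial list summed to 1058 CPM in WT and 52.4 in CD40 KO, against 339 and 118 CPM in macrophage cells. The fibroblast list summed to 935 and 284 against 382 and 500.4 CPM, and the B cell list to 127 and 2.02 against 27.9 and 25.8 CPM. All 3 were above the macrophage cells in WT and below them in CD40 KO. In WT 2 of the 48 cells carried endothelial or fibroblast transcripts, one of them 203 UMIs of endothelial genes. With these cells 3 endothelial genes and 1 B cell gene reached a mean of 50 CPM in C1q-low members of the libraries. Without them 0 genes of either list did, so these sums do not describe the WT members as a set. Of the list of type 1 conventional dendritic cells, 0 of 7 measured genes were at least 2-fold higher in both libraries and 1 lower. Its median log2 fold over macrophage cells turned between the libraries, at 1.16 in WT and -0.95 in CD40 KO. Only 2 WT and 1 CD40 KO members of any kind held at least 3 UMIs of the list's defining genes Xcr1 and Clec9a. At least 3 UMIs of the plasmacytoid genes Siglech and Ccr9 were held by 0 WT and 1 CD40 KO members. Cd79a of B cells and Cd3e, Cd3d, Cd3g and Trac of T cells were at 0 in the C1q-low members of both libraries. No member held 3 UMIs of B cell genes or of T and NK cell genes, and a count of 0, taken as 3 cells of the total, allows a share of up to 2.03% in WT and 3.45% in CD40 KO. The neutrophil list summed to 911 CPM in WT and 149 in CD40 KO C1q-low members, and 67.4% of the S100a9 UMIs in WT came from 1 cell.

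C1q-high members carried dendritic cell and macrophage transcripts in one barcode. Per cell they held a mean of 5.8 and 4.84 UMIs of Cd209a in WT and CD40 KO, beside 6.54 and 4.84 in C1q-low members. They held 60.3 and 43.8 UMIs of C1qa per cell against 52.0 and 46.4 in macrophage cells without cluster 11, and 227 and 115 UMIs of Apoe against 191 and 125. Per cell, Klrd1 stood at 3.07 and 3.24 UMIs in C1q-high and 3.31 and 6.0 in C1q-low members. The rule and the C1q limits chose the cells by Cd209a and C1q, so the levels of these are a description. The median Cd209a count was 5 UMIs in both kinds of member in WT, and 2 in C1q-high and 4.5 in C1q-low members in CD40 KO, where 61.8% and 84.4% held any Cd209a. Klrd1, which the rule did not use, was lower per cell in C1q-high than in C1q-low members of CD40 KO. The cells with the highest doublet scores included 21 of 100 WT and 9 of 55 CD40 KO C1q-high members, against 1 of 48 and 1 of 32 C1q-low members. Among all kept cells they were 442 of 7431 and 265 of 5757. C1q-high members were also deeper, and scores were not compared among cells of like depth. Whether such barcodes hold one cell or more was not tested, and results below are given for C1q-low members first.

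Members differed in which gene of the rule brought them in, which is a description of the rule's own values. In WT 106 of 148 members entered with at least 3 UMIs of Cd209a alone, 22 with Flt3 alone, 6 with both and 14 by the sum only. In CD40 KO the counts were 47, 29, 5 and 6 of 87. At least 1 UMI of each gene was held by 76 of 148 WT (51.4%) and 33 of 87 CD40 KO members (37.9%). A share of 71.6% (63.6 to 78.7) of WT and 54.0% (43.0 to 64.8) of CD40 KO members therefore entered through Cd209a alone. Of members with at least 3 Cd209a UMIs, 35 of 112 in WT and 25 of 52 in CD40 KO were C1q-low, against 13 of 36 and 7 of 35 of the others. Within C1q-low members, Mgl2, a lectin of type 2 and monocyte-derived dendritic cells, was at 112 CPM in WT and 249 in CD40 KO in cells that entered by Cd209a and at 0 and 16.4 CPM in the others. The chemokine Ccl17 was at 20.6 and 177 CPM in the former and without a UMI in the latter, but 1 cell held 88.9% of its UMIs in WT and another 72.7% in CD40 KO. Cd40 was at 29.8 and 56.2 CPM in the former and 6.73 and 0 in the latter, from few UMIs.

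Cells just inside the limit on Cd209a and Flt3 were deeper than those just outside it, more so in WT. The 31 WT and 28 CD40 KO members with exactly 3 UMIs of the pair had medians of 36867 and 25213 UMIs, 207 and 106 class II UMIs and 140 and 62 C1q UMIs. The 68 and 80 cells left out with 2 UMIs had medians of 22541 and 22594 UMIs, 199 and 59.0 class II UMIs and 59.0 and 48 C1q UMIs. Of the cells with 3 UMIs 20 and 13 were in cluster 5, and of those with 2 UMIs 40 and 24. The limit of 10 class II UMIs alone kept out 1 WT and 3 CD40 KO cells with enough Cd209a and Flt3, and the limit on Ccr7 alone 21 and 42.

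The Ccr7 cells, which met the same filters and held at least 10 class II and at least 3 Ccr7 UMIs, numbered 70 in WT and 93 in CD40 KO. Their 30 and 48 C1q-low cells had H2-Eb1 at 8310.0 and 5872 CPM, beside the 5685 and 5395 CPM of C1q-low members, and differed in genes of maturation. Fscn1, an actin bundler of mature dendritic cells, was at 503 and 199 CPM in them and at 37.6 and 0 in C1q-low members. Ccl5, a chemokine, was at 1532 and 1034 against 41.0 and 266 CPM and the calcium channel subunit Cacnb3 at 169.6 and 86.6 against 0 UMIs in both libraries. The mature dendritic cell list, which includes Ccr7, summed to 6691 and 4831 CPM in Ccr7 cells and 746 and 893 CPM in C1q-low members. Cd7 was on the other side, at 88.9 and 76.6 CPM in C1q-low members and 8.21 and 22.7 in Ccr7 cells, as was Klrd1 at 272 and 387 against 161 and 271 CPM. After thinning, Htr7 was seen in 40% of WT and 37.5% of CD40 KO C1q-low Ccr7 cells, against 27.1% and 25% of C1q-low members. Zbtb46 was seen in 36.7% and 35.4% against 14.6% and 15.6%, and Dpp4 in 33.3% and 27.1% against 18.8% and 15.6%. For each of these genes the exact intervals of both sets overlapped. Cd40 was at 95.7 and 82.6 CPM in Ccr7 cells, above the 23.9 and 42.3 CPM of C1q-low members in both libraries.

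Variation from member to member was taken relative to what a gene's counts and the depth of each cell predict. Cd74 had the largest residual variance, 41.2 in WT and 30 in CD40 KO, where 1 is the value for counting noise with the small dispersion allowed, and H2-Eb1 had 36.1 and 28.9. The others of the 12 most variable genes were H2-Ab1, H2-Aa, Cxcl2, Apoe, Spp1, Plac8, Ftl1, Lyz2, Malat1 and Pf4. These variances were taken over C1q-low and C1q-high members together, so differences between the kinds of member are part of them. H2-Eb1, H2-Ab1 and H2-Aa are genes of the rule. Single members ranged from 20 to 556 class II UMIs in WT and from 22 to 844 in CD40 KO. Cell cycle genes of G2 and M phase reached 5 UMIs in 4 of 48 WT and 4 of 32 CD40 KO C1q-low members and in 32 of 100 and 20 of 55 of the deeper C1q-high members. At 3000 UMIs per cell the count was 4 of 148 and 5 of 87 over all members, so no order was read from it.

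The share of members among kept cells was 1.99% (exact 95% interval 1.69 to 2.34) in WT and 1.51% (1.21 to 1.86) in CD40 KO. Without cluster 11 the order turned: 1.97% (1.67 to 2.31) in WT and 2.80% (2.25 to 3.44) in CD40 KO. The share also moved with depth, from 0.133% of WT and 0.101% of CD40 KO cells with at least 3000 and under 6000 UMIs to 7.95% and 5.0% of cells with at least 48000 UMIs. Thinned to 3000 UMIs, 0.336% and 0.191% of cells still met the rule. C1q-low members made up 0.646% (0.477 to 0.856) of kept cells in WT and 0.556% (0.380 to 0.784) in CD40 KO, intervals that overlap, and without cluster 11 0.648% (0.478 to 0.858) and 1.03% (0.706 to 1.45). Set against Ccr7 cells, members made up 67.9% (61.2 to 74.0) of both sets in WT and 48.3% (40.8 to 55.9) in CD40 KO, intervals that do not overlap. The CD64 gate and the depth can both set such shares, and with 1 library per group the library and the genotype cannot be told apart.

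**Figure D3:**
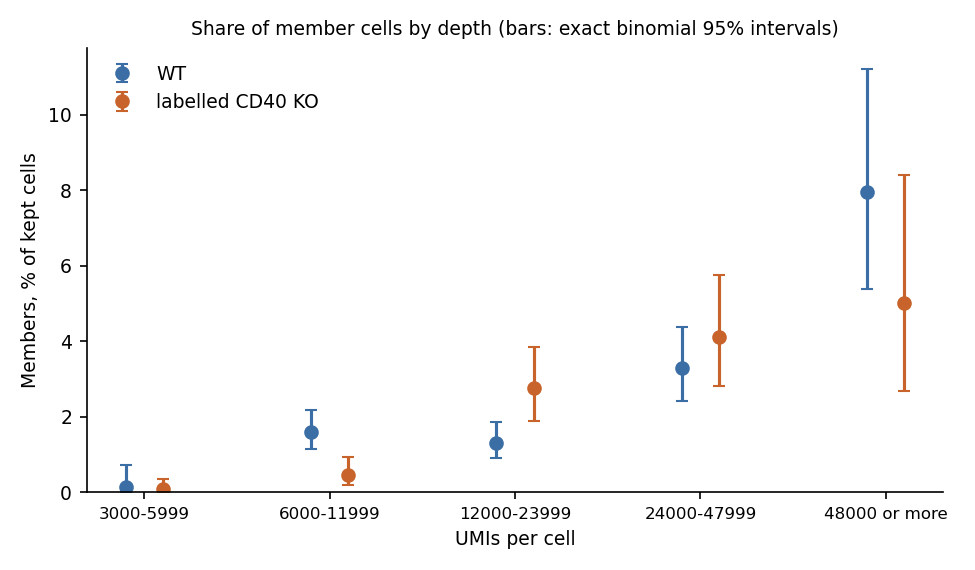
Points give members as a percent of kept cells in 5 ranges of UMIs per cell, with exact 95% binomial intervals, for the WT and CD40 KO libraries. The share climbs from 0.133% and 0.101% in the shallowest range to 7.95% and 5.0% in the deepest, and CD40 KO lies under WT in the range from 6000 UMIs and above it in that from 12000.

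Between the libraries, all members together had 558 of 5874 genes (9.5%) at least 1.5-fold higher in CD40 KO and 438 (7.46%) at least 1.5-fold lower, over genes with a mean of at least 20 CPM. At 1.3-fold, the limit used for lists over all members, 1236 genes (21%) were higher and 948 (16.1%) lower. In the C1q-low members, over genes with a mean of at least 50 CPM, 357 of 3426 (10.4%) were higher by 1.5-fold or more and 501 (14.6%) lower by as much. In that smaller set 2 WT cells carried endothelial or fibroblast transcripts, one of them 203 UMIs of endothelial genes, and held 14.5% of the UMIs. The CD40 KO C1q-low members held no such cell. Without them 342 of 3367 genes (10.2%) were higher and 442 (13.1%) lower.

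The antigen presentation genes were close between the libraries in C1q-low members. The class II list was lower in CD40 KO in C1q-high members, and also in macrophage cells and C1q-low Ccr7 cells. In C1q-low members the log2 ratio of CD40 KO over WT was -0.16 for H2-Aa, 0.20 for H2-Ab1, -0.08 for H2-Eb1 and 0.13 for Cd74. Of 14 measured class II presentation genes, none was 1.5-fold higher and 2 lower, beside 10.4% and 14.6% of all genes. Their median log2 ratio was -0.08, beside -0.08 over all genes. Without the stromal cells 0 of 15 were higher and 3 lower, with a median of -0.26. H2-Ob was one of the 2, at 68.4 CPM in WT and 26.2 in CD40 KO, a log2 ratio of -1.38 (-2.41 to -0.45). H2-Eb2, a class II gene outside the named-gene rule, was at 6.84 and 70.6 CPM, but from only 4 of 48 WT and 8 of 32 CD40 KO cells. The class II list, which holds the proteases Ctsb and Ctsd, summed to 31315 CPM in WT and 31321 in CD40 KO C1q-low members. It summed to 21604 and 16459.5 CPM in C1q-high members and to 18135.5 and 12311 CPM in macrophage cells without cluster 11. In C1q-low Ccr7 cells it was 40152 and 31394.5 CPM. Over all members 1 of 16 class II genes was 1.3-fold higher and 5 lower. Of 20 class I genes 0 were higher and 1 lower, beside 21% and 16.1% of all genes.

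The genes that chose the members and the marker Htr7, given as a description, lay within 2-fold between the libraries. Cd209a had a log2 ratio of -0.78 (-1.07 to -0.50) in C1q-low members and -0.36 over all members, Flt3 -0.25 and 0.50, and Htr7 -0.37 and 0.66. The sign of Flt3 and Htr7 therefore turned between the C1q-low members and the whole set. Of the 16 measured genes of type 2 and monocyte-derived dendritic cells 3 were higher and 1 lower in C1q-low members. The shares of all genes were 10.4% and 14.6%, and the list median was 0.28. Without the stromal cells 2 were higher and 1 lower, with a median of 0.11. Over all members 6 of 17 were at least 1.3-fold higher and 1 lower, beside 21% and 16.1% of all genes. Of the 13 shared dendritic cell genes 2 were higher and 1 lower, and without the stromal cells 0 were higher and 1 lower.

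Costimulatory and checkpoint ligands leaned to the CD40 KO library. Of 11 measured in C1q-low members, 3 were at least 1.5-fold higher and none lower, a share of the list above the 10.4% of all genes, with a median of 0.28. Cd80, a ligand of CD28 and CTLA-4, was at 83.8 CPM in WT and 244 in CD40 KO, a log2 ratio of 1.54 (1.05 to 2.05), seen in 24 of 48 WT and 24 of 32 CD40 KO cells. In C1q-high members its log2 ratio was 0.71 and in macrophage cells without cluster 11 0.78. Cd274, which encodes PD-L1, was at 116 and 282 CPM, a log2 ratio of 1.28 (0.85 to 1.72), against 0.19 in C1q-high members and 0.39 in macrophage cells. Cd86 was nearer, at 643 and 782 CPM and 0.28 (0.07 to 0.49). All 3 ratios were above 0. Over all members 7 of 12 such genes were at least 1.3-fold higher and 0 lower, beside 21% and 16.1% of all genes.

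Genes downstream of CD40 showed no common direction. In C1q-low members 2 of 15 measured were at least 1.5-fold higher and 1 lower, beside 10.4% and 14.6% of all genes. The list median was 0.04, and without the stromal cells 2 of 16 were higher and 2 lower. Traf1, an adaptor that NF-kB induces, was at 173 CPM in WT and 302 in CD40 KO, a log2 ratio of 0.81 (0.43 to 1.19), and Rel at 882 and 1139 CPM, 0.37. The inhibitor Nfkbia was at 1395 and 1115 CPM, -0.32. Over all members 5 of 20 were at least 1.3-fold higher and 3 lower, beside 21% and 16.1% of all genes.

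Some of the large ratios were found in macrophage cells too. Abcc4, an exporter of prostaglandins and cyclic nucleotides, was at 85.5 CPM in WT and 474 in CD40 KO in C1q-low members, a log2 ratio of 2.47 (2.02 to 2.94), and its ratio was 1.58 in C1q-high members and 1.45 in macrophage cells without cluster 11. Crip1, a LIM domain protein, was at 607 and 2311 CPM, 1.93 (1.76 to 2.10), against 1.33 and 1.67. The interferon-induced Ifi27l2a was at 259.9 and 1063 CPM, 2.03, against 1.97 and 1.68. The metallothionein Mt1, which binds zinc and copper, was at 162 and 667 CPM, 2.04, against 1.87 and 1.65. Mt1, Crip1 and Ifi27l2a also lead cluster 11, and macrophage cells outside that cluster had higher levels in CD40 KO too for all 4 genes.

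Several other genes, most of them higher in C1q-low members than in macrophage cells, were also higher in CD40 KO. Aff3, a nuclear protein of lymphoid cells, was at 132 CPM in WT and 357 in CD40 KO in C1q-low members, a log2 ratio of 1.44 (1.04 to 1.84), and at only 5.32 and 9.13 CPM in macrophage cells. Stat4, which carries the IL-12 signal, was at 95.8 and 214 CPM, 1.16 (0.68 to 1.65). Tnip3, an inhibitor of NF-kB, was at 214 and 688 CPM, 1.69 (1.39 to 1.99), against 1.04 in macrophage cells. Mgl2 was at 83.8 and 192 CPM, 1.19 (0.68 to 1.72), seen in 8 of 48 WT and 9 of 32 CD40 KO cells. Zeb1 was at 210.3 and 411 CPM, 0.97, with 40.7% of its CD40 KO UMIs in 1 cell. The prostaglandin receptor gene Ptger4 was at 106 and 239.9 CPM, 1.18 (0.72 to 1.65), while macrophage cells without cluster 11 had -0.03. Whether any of these ratios differs from that of macrophage cells was not tested.

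**Figure D4:**
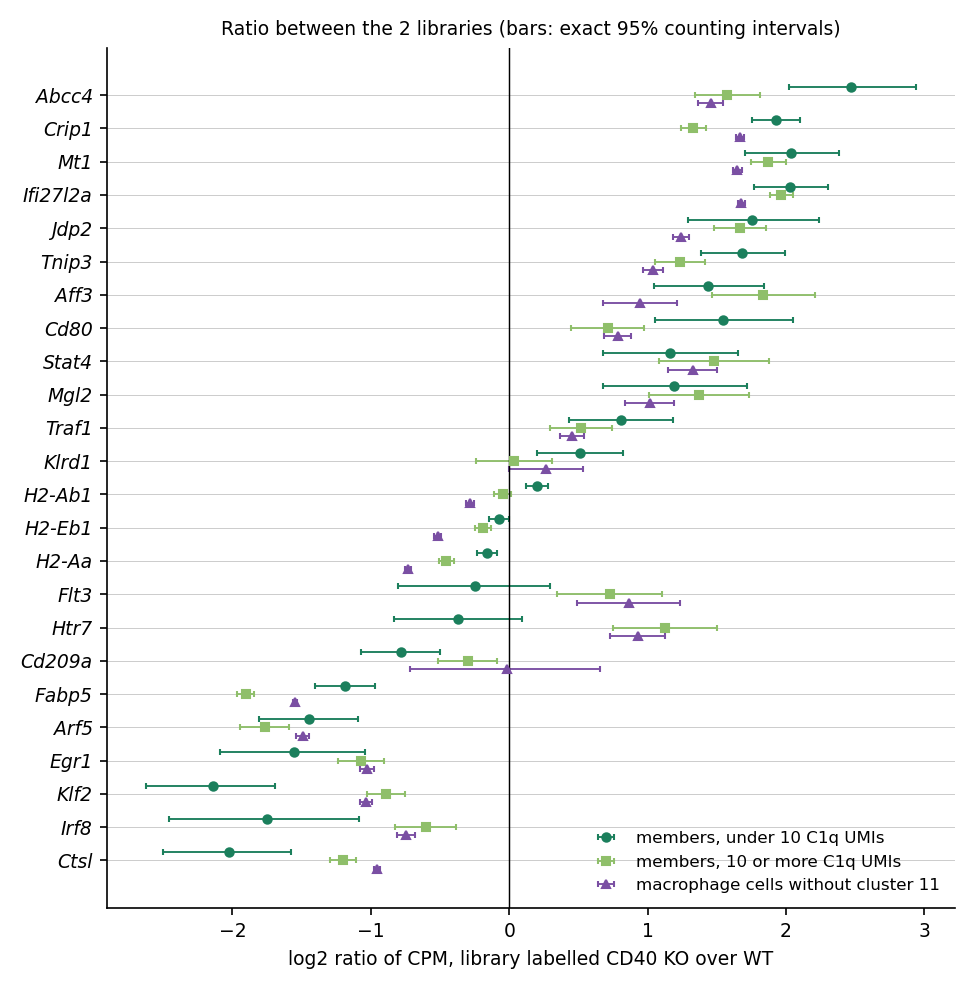
Points give the log2 ratio of CPM, CD40 KO over WT, for 24 genes in C1q-low members, C1q-high members and macrophage cells without cluster 11, and bars give exact 95% counting intervals. Abcc4, Crip1, Mt1, Ifi27l2a, Jdp2, Tnip3, Aff3, Cd80, Stat4, Mgl2 and Traf1 lie above 0 in all 3 sets, H2-Ab1, H2-Eb1 and H2-Aa lie between -0.73 and 0.20, and Fabp5, Arf5, Egr1, Klf2, Irf8 and Ctsl lie below 0 in all 3.

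Immediate early genes were on the lower side in CD40 KO. In C1q-low members 12 of 19 measured were at least 1.5-fold lower and 1 higher, beside 14.6% and 10.4% of all genes. The list median was -0.78. Without the 2 cells with stromal transcripts 8 were lower and 1 higher, with a median of -0.42. Over all members 11 of 20 were at least 1.3-fold lower and 1 higher, beside 16.1% and 21% of all genes. Klf2, a zinc finger transcription factor, was at 419 CPM in WT and 94.8 in CD40 KO, a log2 ratio of -2.14 (-2.63 to -1.69), and -1.76 without the stromal cells. Egr1 was at 243 and 82.7 CPM, -1.55 and -1.02 without them, and Fos at 681 and 343 CPM, -0.99 and -0.39. Macrophage cells without cluster 11 had -1.03 for Klf2, -1.03 for Egr1 and -0.48 for Fos. The exception on the higher side was Hspa1a, a heat shock gene of the list, at 195 and 446 CPM with 56.1% of its CD40 KO UMIs in 1 cell.

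Other genes were lower in CD40 KO as well. Irf8, a factor of type 1 and plasmacytoid dendritic cells, was at 162 CPM in WT and 48.4 in CD40 KO in C1q-low members, a log2 ratio of -1.75 (-2.46 to -1.09), against -0.60 in C1q-high members and -0.75 in macrophage cells. The list of type 1 dendritic cells, of which Irf8 is one, had 6 of 7 measured genes at least 1.5-fold lower in C1q-low members and 7 of 7 without the stromal cells, although its defining genes Xcr1 and Clec9a were too low to be measured. Over all members 0 of 7 genes of the list were at least 1.3-fold higher and 1 lower, with a median of 0.15. Arf5, a GTPase of vesicle transport, was at 477 and 175 CPM, -1.44 (-1.81 to -1.09), against -1.49 in macrophage cells. Fabp5, a fatty acid carrier, was at 1118 and 492 CPM, -1.18 (-1.40 to -0.97), against -1.55, and the protease Ctsl at 402 and 98.8 CPM, -2.02, against -0.95. In WT 1 cell held 42.8% of the Fabp5 and 44.3% of the Ctsl UMIs of C1q-low members.

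Over all members the macrophage and lipid genes were lower in CD40 KO. Of 18 macrophage genes 13 were at least 1.3-fold lower and 1 higher, with a median of -0.54. Of 19 lipid handling genes 11 were lower and none higher, with a median of -0.67. Of all genes 16.1% were lower and 21% higher by that limit. In C1q-low members 2 of 13 macrophage genes were at least 1.5-fold lower and 2 higher, and 9 of 18 lipid genes lower and 2 higher. The shares of all genes there were 14.6% lower and 10.4% higher, so the macrophage count lower was near that of all genes. Without the stromal cells 5 of 14 macrophage genes were lower and 2 higher, with a median of -0.39, and 8 of 17 lipid genes lower and 1 higher. Apoe was at 5283 CPM in WT and 2519 in CD40 KO over all members, a log2 ratio of -1.07, but at 0.12 (-0.11 to 0.35) in C1q-low members. Spp1, osteopontin, was at 6267 and 2524 CPM, -1.31, and -0.66 in C1q-low members. Areg, an EGF receptor ligand, was at 37.4 and 103 CPM, 1.46, and turned to -1.31 in C1q-low members. Sparc, a matrix protein of stromal cells, was at 575 CPM in WT and 6.05 in CD40 KO in C1q-low members. Over all members its log2 ratio was -3.92, and 0.87 without the cells with stromal transcripts.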

How the data were processed

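Single-cell RNA was measured in 2 libraries, 1 per group, with no replicates. The deposited matrices hold whole UMI counts per gene and cell for 32285 genes, and they are filtered Cell Ranger 7.0.1 output, per the file headers. Cell Ranger and STAR with the mm10 genome are named per the submitters' processing notes, and the sources used here give no other settings. There were 10624 cells and 139343516 UMIs in WT, and 8146 cells and 90057108 UMIs in CD40 KO. The members and all gene lists were chosen with earlier results of these data known, so no list is independent evidence.

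Counts were summed over the cells of a set, divided by the set's total and given as CPM. Ratios between libraries carry exact binomial 95% intervals of the gene's UMIs, and shares of cells exact Clopper-Pearson intervals, which cover counting error only. A gene was measured in a set at a mean of at least 20 CPM over all members, or at least 50 CPM in C1q-low members, and called past 1.5-fold (lists over all members 1.3-fold). C1q-low members and macrophage cells were compared within each library, 2 CPM added, and a gene was called at 2-fold in both. A list median puts 3 counts in place of 0. The 33 lists named 577 genes, of which 569 were matched by symbol, and the others were not analysed here. Kept cells were clustered with scanpy 1.11.5 and igraph 0.11.9 (2000 variable genes, 30 components, 15 neighbours, resolution 0.6), giving 14 clusters. Scrublet, run in scanpy, marked 0 WT and 0 CD40 KO cells at its own threshold and was not used for removal. A fixed rate of 0.8% per 1000 cells marked 442 and 265, which were left in, and their removal was an alternative. Residual variance was the mean squared Pearson residual with a dispersion parameter of 100. The ratio code was tested on simulated data. Promoter sequences are RefSeq's (GRCm38.p6) and gene positions GENCODE vM21's (GRCm38).

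Named genes were Cd40, the rule's genes and the markers, the 12 highest and 12 lowest ratios among genes of at least 50 CPM, the 2 highest and 2 lowest of each list, the 12 highest over macrophage cells and the 12 most variable, 144 genes in all, of which some are described. Genes of ribosomal proteins, mitochondria, haemoglobin, immunoglobulin and sex chromosomes and those without a gene name were left out of the ratios. Other genes named, among them Cd7, Napsa, Zbtb46, Dpp4, H2-Oa, H2-Ob, H2-Eb2, Ccl17, Fscn1, Cacnb3, Cd274, Cd86, Rel, Fos, Gpr183 and Map3k14, were chosen after their values were seen.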

Additional observations from a re-analysis of the deposited data

How the results depend on the processing

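No paired analysis was possible because each group has 1 library. For the same reason no replicate could be left out, and depth limits what the 80 C1q-low members can show: genes under 50 CPM there rest on few UMIs, and 1 cell can hold most of them. The share of members moved with several settings. In WT it was 1.28% with at least 5 UMIs of Cd209a and Flt3, 2.91% with at least 2, and 0.336% with cells thinned to 3000 UMIs. In CD40 KO it was 0.799%, 2.90% and 0.191% in that order, 1.11% and 2.25% with minimums of 1000 and 6000 UMIs, 1.99% with a mitochondrial limit of 5%, and 2.80% without cluster 11. Genes higher in CD40 KO over all members numbered 345 at a minimum of 50 CPM, 1882 with at least 10 UMIs and no CPM minimum, and 130 at 2-fold. Genes lower numbered 218, 1906 and 80 in that order, and, at the minimum of 20 CPM used for all members, 1213 of 5837 in C1q-low members and 798 of 5901 in members with fewer than 10 C1q UMIs per 10000. Fewer or more genes are tested under the first pair of these settings, and the cause of the other moves was not tested.

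Median-of-ratios scaling moved all ratios by 0.05 (log2). Some all-member ratios turned sign with the choice of cells: in C1q-low members Apoe was 0.12, Clec10a 0.22 (from -0.70), Flt3 -0.25, Htr7 -0.37 and Areg -1.31, and Areg was -0.55 in members with fewer than 10 C1q UMIs per 10000. Sparc was 0.87 without stromal transcripts and 1.09 in cluster 5, and the median of the Ly6c monocyte list was -0.11 in cluster 5. Among 25 list medians, 408 of 425 values under alternatives lay within 1.3-fold of the reported one, and of 68 gene ratios 721 of 1020 values lay within the counting interval. Leaving out cluster 11, members with stromal transcripts, members by C1q per 10000 UMIs and members outside cluster 5 were alternatives chosen after seeing the data. Genes higher and lower in C1q-low members than in macrophage cells numbered 188 and 221 without cluster 11 and 213 and 222 without stromal transcripts.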

Other observations

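Of 28 transcription factors measured, 20 were past 2-fold in neither direction between C1q-low members and macrophage cells. Beside 5.39% of all genes higher and 5.62% lower, 4 were at least 2-fold higher in C1q-low members in both libraries (Zbtb46, Bcl6, Nr4a3 and Etv6) and 4 lower, among them Cebpa, Cebpb and Maf. Nr4a3, an orphan nuclear receptor, was at 243 CPM in WT and 375 in CD40 KO in C1q-low members and 56.5 and 63.5 CPM in macrophage cells. Bcl6, a repressor, was at 137 and 137 against 66.5 and 64.0 CPM. Maf, a macrophage factor, was at 35.9 and 22.2 against 226 and 179 CPM, and Cebpb, a factor of monocytes and granulocytes, at 299 and 363 against 1219 and 1094 CPM. Of 16 receptors for growth factors and neurotransmitters Flt3, Htr7 and the decoy receptor gene Il1r2 were higher and Csf1r, the macrophage growth factor receptor, lower, at 95.8 and 105 against 239 and 265 CPM. Csf2rb, the shared chain of the GM-CSF, IL-3 and IL-5 receptors, was at 173 and 347 CPM in C1q-low members, a log2 ratio of CD40 KO over WT of 1.01 (0.64 to 1.37).

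Of 13 C-type lectins measured, Cd209a, Clec10a, Mgl2 and Klrd1 were higher in C1q-low members and Clec4d, Clec4e and Mrc1 lower. Of all genes 5.39% were higher and 5.62% lower. Clec4d, a receptor for mycobacterial lipid, was at 108 and 66.5 against 318 and 389 CPM. The neighbours of Cd209a in its gene family were near 0: Cd209d was at 15.4 and 0 CPM and Cd209c at 3.42 and 18.1 CPM in C1q-low members. Between the libraries, 6 of 13 measured chemokine genes were at least 1.5-fold higher in CD40 KO C1q-low members (Ccl5, Ccl9, Ccl17, Cxcl1, Cxcl10 and Cxcl16) and none lower, beside 10.4% of all genes higher, with 4 higher and 2 lower without the cells with stromal transcripts. Over all members 4 of 14 were at least 1.3-fold higher and 4 lower, with a median of -0.03. Cxcl16, the ligand of CXCR6, was at 147 and 232 CPM, a log2 ratio of 0.66 (0.24 to 1.08), seen in 32 of 48 WT and 29 of 32 CD40 KO cells. Ccl5 was at 41.0 and 266 CPM, with 45.5% of its CD40 KO UMIs in 1 cell. Of the list of type 1 dendritic cells, Irf8, Cadm1, Wdfy4, Ifi205, Naaa and Ppt1 were lower in CD40 KO. Cadm1, an adhesion molecule, was at 113 and 6.05 CPM but seen in only 6 of 48 WT and 3 of 32 CD40 KO cells, with 71.2% of the WT UMIs in 1 cell.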
